A study of Homo sapiens with 21 samples.

Results

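The comparison set the delta 22 rescue against control RNAi in A673, an established human Ewing sarcoma cell line. It used 8 of the 21 RNA sequencing libraries of the series: 4 delta 22 libraries, from batches 1 to 4, and 4 control RNAi libraries, from batches 1, 2, 3 and 5. The delta 22 cells carried an RNAi against EWS/FLI and a vector expressing the delta 22 mutant of EWS/FLI. The control cells carried an RNAi against luciferase, a gene that human cells lack, with an empty vector as the rescue construct. All cells were stably infected and selected for the RNAi for 4 days before the second infection, and all groups share the A673 background and the vector backbone. Neither group is described as a single clone, and the labels do not say whether the replicates came from separate cultures, so the p-values measure the spread between libraries, which may be partly technical. Where stated, delta 22 was also set against EWS/FLI RNAi with an empty vector (5 libraries) and against EWS/FLI RNAi with full-length type IV EWS/FLI, called the wild-type rescue here (5 libraries).

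EWS/FLI is the fusion of part of EWSR1 with the DNA-binding part of FLI1, an ETS transcription factor, and it drives Ewing sarcoma. It activates genes, many of them next to repeats of the sequence GGAA, and represses others. The delta 22 mutant lacks most of the EWS portion and keeps the FLI portion with its DNA-binding domain, so the comparison asks how RNA levels differ from control cells when the FLI portion is present without the part that activates and represses transcription. Reads of FLI1 cannot be divided among the fusion, intact FLI1 and the construct, and in bulk RNA fewer cells with a transcript and less transcript per cell cannot be told apart.

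Levels are the deposited normalised values on a log2 scale, and a difference is delta 22 minus the other group on that scale. Of 57820 genes in the table, 18040 reached a level of log2(10) in at least 3 of the 21 libraries and were tested. A gene is called when its adjusted p from limma, corrected over all genes tested by the Benjamini-Hochberg method, is under 0.05. Each of the 8 libraries had between 16708 and 17115 genes at or above log2(10). The table keeps no read totals, so the depth of each library is unknown. The library labelled wild-type rescue 3 stood apart from the other wild-type libraries in inflammatory genes, and its values are given where it touches a result.

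FLI1 was close to the control level in delta 22 cells but was not equal to it. The 4 delta 22 libraries had FLI1 levels of 11.51, 11.22, 10.99 and 11.38, against 11.69, 11.61, 11.56 and 11.68 in the control RNAi libraries. Every delta 22 library was below every control library. The difference was −0.36 ± 0.10 (SE), a 1.28-fold lower level (adjusted p = 0.0047, limma). The exact two-sided permutation test gave p = 0.0286, the smallest that 4 against 4 libraries allow, and 0.0429 after adjustment over the 6 tests made on FLI1 and EWSR1. Within batches 1, 2 and 3 the differences were −0.18, −0.39 and −0.58. FLI1 in delta 22 cells was 2.84-fold above the empty vector cells, which had levels of 9.67, 9.84, 9.99, 9.59 and 9.76. It was also 1.74-fold above the wild-type rescue, whose libraries had 10.69, 10.46, 10.35, 10.46 and 10.42. The FLI1 transcript level in delta 22 thus lay between those of control RNAi and the wild-type rescue, and no delta 22 library overlapped either group.

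EWSR1, which encodes an RNA-binding protein and provides the other part of the fusion, was lower in delta 22. Its levels were 13.65, 13.69, 13.56 and 13.70 in the delta 22 libraries, against 14.22, 14.14, 14.11 and 14.23 in the control RNAi libraries. The groups did not overlap, and the difference was −0.52 ± 0.07 (SE, adjusted p = 2.22e-06, limma; exact permutation p = 0.0286). Against the empty vector the EWSR1 difference was −0.06, with an exact permutation p of 0.27. Reads of EWSR1 cannot be divided among intact EWSR1, the fusion and any EWS part kept in the construct. A fall of intact EWSR1 is therefore not shown.

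**Figure D1:**
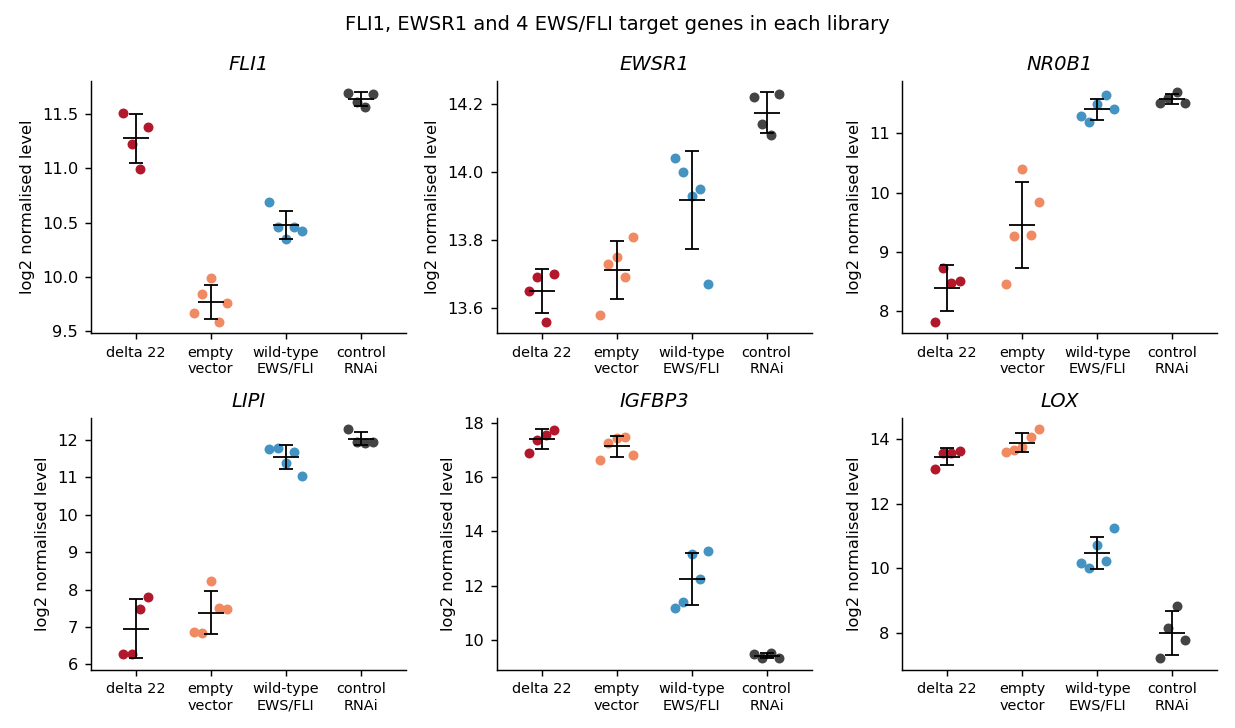
Log2 normalised levels of 6 genes in each library of the delta 22, empty vector, wild-type and control RNAi groups. Points are libraries, and bars are the mean and SD. FLI1 in delta 22 lies between 10.99 and 11.51, just under the control libraries, while NR0B1 and LIPI lie near the empty vector libraries and IGFBP3 and LOX far above control.

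RNA levels differed from control RNAi over most of the transcriptome. Of the genes tested, 12402 were called, which is 68.7% of all genes tested. The calls were split into 6324 higher in delta 22 (35.1% of genes tested) and 6078 lower (33.7%). The sizes were not symmetrical. At least 2-fold differences were called for 3149 genes higher in delta 22 (17.5%) and for 1710 genes lower (9.48%). At least 4-fold, there were 1430 higher (7.93%) and 510 lower (2.83%). After quantile scaling, 39.3% of the calls were higher in delta 22, against 51% without it, and the median over all genes was −0.183, against −0.006. In 63.6% of genes tested the libraries of the groups did not overlap. Of the genes called, 97.2% differed in the same direction in each of batches 1, 2 and 3. Among the 4859 genes called with at least 2-fold differences (26.9% of genes tested), that share was 99.7%. The calls rest on these same libraries, so much of this agreement was fixed in advance and is not a separate test.

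**Figure D2:**
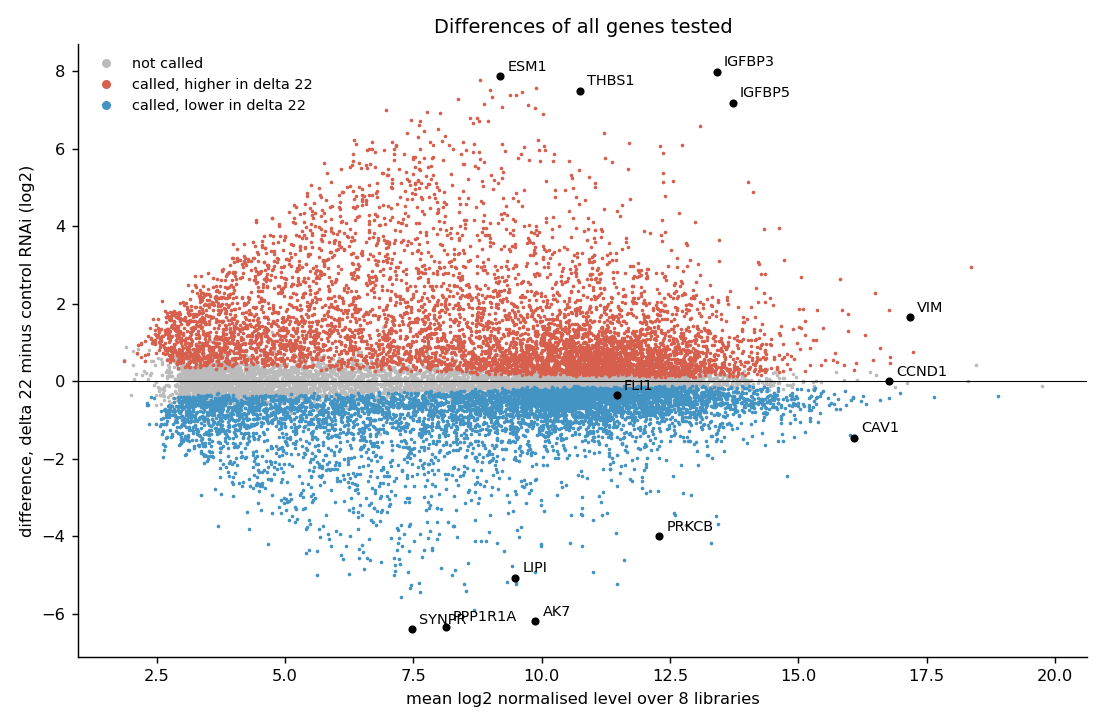
Difference of delta 22 minus control RNAi (log2) against the mean log2 level over the 8 libraries for each of the 18040 genes tested. Red points were called higher in delta 22 and blue points lower. IGFBP3 and IGFBP5 combine a high level with differences of 7.99 and 7.19, and SYNPR has the largest fall shown, −6.39.

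The largest falls are given for genes with a mean level of at least log2(100), a filter that a gene with a large fall can pass only where it was high in control cells. SYNPR, which encodes the synaptic vesicle protein synaptoporin, had levels of 4.26, 4.01, 4.63 and 4.19 in delta 22 and 10.51, 10.53, 10.88 and 10.73 in control RNAi libraries. All delta 22 libraries were at least 5 log2 units below all control libraries, and the fitted difference was −6.39 ± 0.37 (SE, adjusted p = 1.57e-11, limma). PPP1R1A, an inhibitor of protein phosphatase 1, had 4.66, 4.45, 5.47 and 5.28 in delta 22 against 11.35, 11.44, 11.40 and 10.97 in control RNAi. Its difference of −6.33 ± 0.28 (SE, adjusted p = 5.04e-13, limma) corresponds to an 80.3-fold lower level. AK7, an adenylate kinase, fell by 6.19, the pituitary transcription factor gene POU1F1 by 5.91 and the complement gene C7 by 5.57. TMEM229A fell by 5.44, the fatty acid hydroxylase gene CYP4F22 by 5.40, CLUL1 by 5.34 and the hair cell gene LOXHD1 by 5.25. AMER2, a regulator of Wnt signalling, the antisense transcript FEZF1-AS1 and the tetraspanin gene TSPAN8 each fell by 5.24. Because the counting is not stated to use strand, reads of FEZF1-AS1 and its neighbour FEZF1 may not be separable.

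Most of these genes were high again in the wild-type rescue, and C7 was the exception. C7 had levels of 3.71, 4.49, 3.81 and 5.94 in delta 22 libraries, 6.07, 3.82, 3.24, 4.31 and 3.19 in the wild-type rescue and 11.79, 9.84, 9.01 and 9.59 in control RNAi. Delta 22 and wild type overlapped, with a difference of 0.36 ± 0.57 (SE, adjusted p = 0.602, limma). The other 11 genes of this group were called lower in delta 22 than in the wild-type rescue, by between 3.40 for CLUL1 and 5.50 for CYP4F22.

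Genes known to be activated by EWS/FLI were lower in delta 22. Of 46 tested members of a list drawn from general knowledge of Ewing sarcoma, 38 fell and 5 rose, with a median difference of −1.97 beside a median of −0.006 over all genes. Many of these genes were first described in Ewing sarcoma lines, so the list is not independent evidence of its direction. NR0B1, a nuclear receptor needed for transformation, had levels of 7.82, 8.73, 8.48 and 8.51 in delta 22 against 11.51, 11.60, 11.69 and 11.52 in control RNAi. No delta 22 library came within 2 log2 units of a control library, and the difference was −3.20 ± 0.27 (SE, adjusted p = 3.13e-09, limma). PRKCB, which encodes protein kinase C beta, had 9.17, 10.55, 10.58 and 10.83 in delta 22 and 14.13, 14.29, 14.35 and 14.38 in control RNAi. It was 16.1-fold lower in delta 22, with batch 1 showing the lowest delta 22 value. LIPI, a cancer-testis lipase, was 33.5-fold lower. NKX2-2, a homeodomain repressor used in diagnosis of the tumour, fell by 2.23, and GLI1, the hedgehog effector, fell by 3.72. FCGRT, the neonatal Fc receptor gene, fell by 3.58, GSTM4, a glutathione transferase, by 3.11, BCL11B, a zinc finger factor, by 2.56, and STEAP1, a metalloreductase, by 1.78. IGF1 fell by 3.27 and TERT, the catalytic subunit of telomerase, by 4.36, with delta 22 TERT levels of only 2.79 to 3.67. CAV1, the caveolin gene, fell by 1.45 and stayed at a high level of 15.20 to 15.52 in delta 22. Smaller falls were seen for ID2 (1.32), KIT (0.89), EZH2 (0.80) and MYC (0.60).

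Members that did not fall were few. CCND1, which encodes cyclin D1, had levels of 16.92, 16.79, 16.76 and 16.59 in delta 22 and 16.46, 16.85, 16.91 and 16.82 in control RNAi libraries. The groups overlapped and the difference was 0.01 ± 0.12 (SE, adjusted p = 0.973, limma), but quantile scaling gave −0.29 with an adjusted p of 0.00903. SOX2, a stem cell transcription factor, differed by −0.33 (adjusted p = 0.0832, limma) and TPH1, which makes serotonin, by −0.20. Members called higher were UPP1, a uridine phosphorylase (2.47), TNC, the matrix protein tenascin C (1.73), the polycomb-associated PHF19 (1.05), the phospholipase PLD2 (1.01) and the Fc receptor FCGR2A (0.86). TNC stands on both the activated and the repressed list.

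Genes with a known GGAA repeat bound by EWS/FLI form a partly overlapping list. Of 24 tested, 21 fell and none rose, with a median of −2.19. The members that did not pass were CCND1, SOX2 and the early response gene EGR2, which differed by 0.53. Such repeats often lie far from gene starts. In the 250 bases before the RefSeq gene start (GRCh38.p14), the run GGAAGGAA on either strand was present for 26 of the 1090 matched genes called at least 2-fold lower, or 2.39%. It was present for 3.01% of the 11744 tested genes with a promoter in the table, and for 81 of the 2181 matched genes called at least 2-fold higher, or 3.71%. Of the 334 matched genes called at least 4-fold lower, 5 held it, or 1.5%. It was present for 1 of 19 matched genes of the GGAA-repeat list (5.26%) and 3 of 37 of the EWS/FLI-activated list (8.11%).

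Genes known to be repressed by EWS/FLI were higher in delta 22. Of 29 tested, 26 rose and none fell, with a median of 2.99, and this list too was drawn from work in Ewing sarcoma lines. NKD1, TSC22D3 and PDGFRB did not pass, with differences of −0.21, 0.27 and 0.52. IGFBP3, which binds insulin-like growth factors outside the cell, had levels of 16.90, 17.38, 17.57 and 17.76 in delta 22 against 9.47, 9.33, 9.53 and 9.34 in control RNAi. The groups lay more than 7 log2 units apart, and the difference of 7.99 ± 0.35 (SE, adjusted p = 5.06e-13, limma), or 253-fold, was the largest rise of any gene tested. LOX, a lysyl oxidase that cross-links collagen, had 13.08, 13.55, 13.55 and 13.64 in delta 22 and 7.22, 8.17, 8.83 and 7.78 in control RNAi, a rise of 5.45 ± 0.30 (SE). TGFBR2, a TGF-beta receptor, rose by 2.70, CDKN1A, the inhibitor p21, by 2.82, and FOXO1, a forkhead factor, by 1.31. PMP22, a myelin protein, rose by 7.48, the hyaluronan receptor CD44 by 6.59 and the Wnt inhibitor DKK1 by 5.94.

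Other genes rose by similar amounts. ESM1, a proteoglycan of endothelial cells, had 12.60, 13.40, 13.78 and 12.74 in delta 22 and 5.42, 5.21, 5.30 and 5.05 in control RNAi. This was a 236-fold rise, with no library near the other group. The urea transporter gene SLC14A1 rose by 7.77, TM4SF1 by 7.58, IGFBP7 by 7.53 and the calcium-binding protein gene S100A16 by 7.40. PDGFRA, a receptor tyrosine kinase, rose by 7.39, the lymphatic growth factor VEGFC by 7.35 and the aminopeptidase ANPEP by 7.30. IGFBP5 had 17.56, 17.30, 16.97 and 17.45 in delta 22 against 10.25, 9.99, 10.10 and 10.16 in control RNAi. Its rise of 7.19 ± 0.25 (SE, adjusted p = 2.29e-14, limma) left no overlap between the groups. VIM, the intermediate filament vimentin, rose by 1.66 and had levels of 17.91 to 18.08 in delta 22 libraries.

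Across the insulin-like growth factor axis, 12 of 18 tested members rose and 5 fell. The binding proteins IGFBP3, IGFBP7, IGFBP5 and IGFBP1 (6.12) rose, while the ligand IGF1, the adaptor IRS2 (−1.55), the receptor INSR (−1.03), the protease PAPPA (−1.32) and the RNA-binding protein IGF2BP1 (−1.61) fell.

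**Figure D3:**
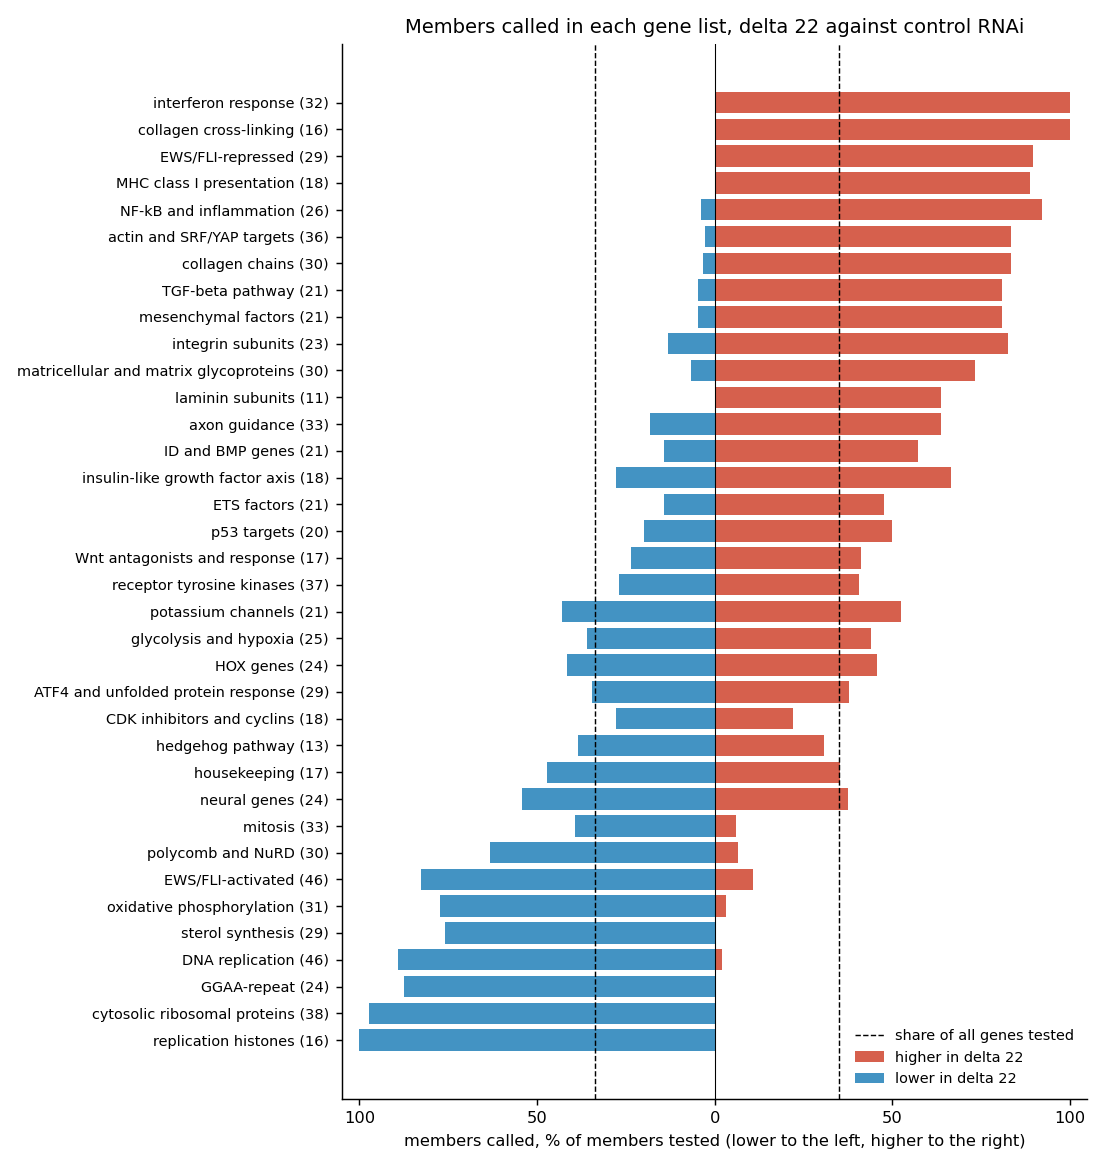
Share of tested members called higher (right, red) and lower (left, blue) in delta 22 against control RNAi, for each list with at least 11 members tested; the number tested is in parentheses. Dashed lines mark the shares of all genes tested, 35.1% higher and 33.7% lower. All 32 interferon genes and all 16 collagen cross-linking genes rose, and all 16 replication histone genes fell.

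Extracellular matrix genes rose together. Of 30 collagen chain genes, 25 rose and 1 fell, with a median of 2.05. COL6A2, a chain of type VI collagen, had 15.53, 15.51, 14.86 and 15.48 in delta 22 and 8.80, 9.48, 9.24 and 9.53 in control RNAi. The groups did not overlap and the rise was 6.08 ± 0.26 (SE, adjusted p = 3.44e-13, limma). COL6A1 rose by 5.15, COL13A1 by 5.50, COL8A1 by 4.29 and COL1A1, the main chain of type I collagen named here after its values were seen, by 4.22. COL21A1 was the chain that fell, by 1.76, and COL4A5, COL8A2, COL10A1 and COL11A2 did not pass. The enzymes and chaperones that modify, process and cross-link collagen rose in 16 of 16 cases, including LOXL2 (5.87), the prolyl hydroxylase P4HA3 (4.10) and the procollagen protease BMP1 (3.11). Of 30 matricellular proteins and matrix glycoproteins, 22 rose and 2 fell, with a median of 2.76. THBS1, thrombospondin 1, had 15.28, 15.27, 14.06 and 13.32 in delta 22 against 6.91, 6.95, 7.30 and 6.79 in control RNAi. Batches 1 and 2 were the higher delta 22 libraries, and all 4 stood far above control, with a rise of 7.50 ± 0.43 (SE). THBS2 rose by 6.67, osteopontin (SPP1) by 6.71 and fibronectin (FN1) by 2.94, while decorin (DCN) fell by 1.45 and MFAP4 by 1.10.

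Receptors for the matrix and the actin cytoskeleton moved with it. Of 23 integrin subunits, 19 rose and 3 fell. ITGA3, a laminin-binding subunit, rose by 6.40, ITGB3 by 6.24, ITGA10 by 5.98 and ITGA6 by 3.82, whereas ITGA7 (−0.92), ITGAE (−0.42) and ITGB2 (−1.22) fell. ITGA6 had levels of 14.32, 13.96, 14.05 and 13.76 in delta 22 and 10.28, 10.38, 10.03 and 10.11 in control RNAi, so that the groups were separated by more than 3 log2 units. Of 11 laminin subunits, 7 rose, among them LAMA4 (6.07), LAMC1 (2.16), LAMB1 (1.91) and LAMB2 (1.79), and none fell. Of 36 actin-associated genes and targets of SRF and YAP, 30 rose and 1 fell, with a median of 1.09. MICAL2, which oxidises actin, rose by 5.91, FHL2 by 3.90, tropomyosin 1 (TPM1) by 3.86 and alpha-actinin 1 (ACTN1) by 1.67, while the myosin gene MYH10 fell by 0.55. The gene for SRF itself differed by −0.04 and did not pass. ACTB, the cytoplasmic actin, differed by 0.47 (adjusted p = 0.000441, limma), but by −0.02 after quantile scaling (adjusted p = 0.863). Of 21 mesenchymal factors and surface markers, 17 rose and 1, THY1, fell by 0.97. NT5E, an ecto-nucleotidase, rose by 5.15 and SNAI2, a zinc finger repressor of epithelial genes, by 4.09, while TWIST1 (−0.31) and CDH11 (0.17) did not pass.

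Signalling pathways showed rises of several ligands and inhibitors. In the TGF-beta pathway, 17 of 21 genes rose and 1 fell. The ligand-binding protein LTBP1 rose by 5.05 ± 0.19 (SE), the receptor TGFBR1 by 3.32 and the signal transducer SMAD3 by 2.45. The inhibitory SMAD6 fell by 0.59, and SMAD2 (−0.01) and SMAD4 (−0.02) did not pass. Under quantile scaling 4 members were called lower. Among BMP and ID genes, 12 of 21 rose and 3 fell, with 5 called lower after quantile scaling. BMP4 rose by 4.21 and its antagonists FST and CHRD by 5.04 and 2.80, whereas ID2, the receptor BMPR1A (−0.56) and SMAD9 (−1.38) fell.

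Wnt antagonists did not move as one group. Of 17 Wnt genes tested, 7 rose and 4 fell, beside 35.1% of all genes tested higher and 33.7% lower. The Wnt counts, and the hedgehog and receptor tyrosine kinase counts below, are not far from these shares. DKK1 had 11.99, 12.26, 12.29 and 12.50 in delta 22 and 5.67, 6.21, 6.88 and 6.54 in control RNAi, without overlap. The ligand WNT5B rose by 5.48, DKK3 by 6.89 and the receptor LGR4 by 2.25, whereas DKK2 fell, as did NKD2, LGR5 and ZNRF3, by between 0.51 for ZNRF3 and 4.18 for DKK2. The feedback target AXIN2 (−0.29) and the transcription factor gene LEF1 (−0.15) did not pass. In the hedgehog pathway 4 of 13 rose and 5 fell: GLI1, its receptor and target PTCH1 (−1.96) and GAS1 (−1.92) fell, and the co-receptor BOC (2.66), CDON, GLI2 and GLI3 rose. Of 37 receptor tyrosine kinase genes, 15 rose and 10 fell. EGFR rose by 5.45, KDR, a receptor for vascular endothelial growth factor, by 5.36 and FGFR1 by 1.38. Those that fell included FLT4 (−3.46), FGFR4 (−2.66), RET (−2.65) and ERBB4 (−2.58). Of 33 axon guidance genes, 21 rose and 6 fell, with PLXNA2 (6.61), SEMA7A (5.02), NRP1 (3.58) and NTN4 (2.64) among the rises and SEMA5B (−3.12) the largest fall. Potassium channel genes were divided, with 11 of 21 higher and 9 lower. The calcium-gated channels KCNN4 (5.96) and KCNMA1 (4.94) rose, and KCNA2 (−4.07), KCNN1 (−3.39) and the subunit KCNAB3 (−3.38) fell.

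Interferon-response genes were higher in delta 22 in all 32 cases tested. Interferons act through STAT factors and interferon regulatory factors, which bind short elements built on repeats of GAAA in the promoters of antiviral genes. Because those elements and the NF-kB element are defined by their letters, the stretch before the gene start is shown for 5 genes of the interferon and antigen presentation lists and for 2 genes of the NF-kB list. Sequences are from RefSeq on GRCh38.p14 and run 5′ to 3′ in the direction of the gene, ending at the base before its start. Capitals mark matches, on either strand, to GAAA followed by any 2 bases and a second GAAA in the first 5, and overlapping matches run together.
GBP1: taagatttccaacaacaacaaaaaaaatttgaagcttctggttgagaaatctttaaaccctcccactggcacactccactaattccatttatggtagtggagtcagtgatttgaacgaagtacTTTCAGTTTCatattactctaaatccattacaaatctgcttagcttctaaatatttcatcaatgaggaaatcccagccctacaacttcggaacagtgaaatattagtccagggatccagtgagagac
ISG20: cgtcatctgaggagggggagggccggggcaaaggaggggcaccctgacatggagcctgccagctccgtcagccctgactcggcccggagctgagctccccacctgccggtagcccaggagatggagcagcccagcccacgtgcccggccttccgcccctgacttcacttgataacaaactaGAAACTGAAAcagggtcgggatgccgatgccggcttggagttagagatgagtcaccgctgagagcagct
PSMB10: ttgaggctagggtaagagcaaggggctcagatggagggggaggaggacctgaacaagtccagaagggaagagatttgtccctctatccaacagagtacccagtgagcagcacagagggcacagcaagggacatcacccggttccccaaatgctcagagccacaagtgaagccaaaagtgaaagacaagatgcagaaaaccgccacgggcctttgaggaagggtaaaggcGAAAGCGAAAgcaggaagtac
IFIT1: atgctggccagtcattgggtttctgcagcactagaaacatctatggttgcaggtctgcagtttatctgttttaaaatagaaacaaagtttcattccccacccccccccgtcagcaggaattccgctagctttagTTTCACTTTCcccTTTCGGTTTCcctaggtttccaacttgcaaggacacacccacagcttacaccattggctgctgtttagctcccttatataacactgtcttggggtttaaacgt
IFI6: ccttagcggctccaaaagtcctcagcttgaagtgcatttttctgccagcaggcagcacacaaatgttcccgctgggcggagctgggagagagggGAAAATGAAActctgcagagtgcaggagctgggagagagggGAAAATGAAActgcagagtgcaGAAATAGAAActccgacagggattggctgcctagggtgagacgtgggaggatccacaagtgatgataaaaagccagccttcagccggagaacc
The windows were chr1:89065209-89065458 on the minus strand for GBP1, chr15:88638766-88639015 on the plus strand for ISG20 and chr16:67936851-67937100 on the minus strand for PSMB10. They were chr10:89392373-89392622 on the plus strand for IFIT1 and chr1:27672193-27672442 on the minus strand for IFI6. GBP1, ISG20 and PSMB10 are among the genes that the rule for named genes gives, and IFIT1 and IFI6 were chosen after their values were seen. All the genes shown hold the motif. IRF1, HLA-B and HLA-C, named by the same rule, had no match in this window and are not shown. This motif was found before 15 of the 22 interferon-list genes matched to the promoter table and before 6 of the 14 matched antigen presentation genes, against 836 of all 27195 promoters, or 3.07%. Among the 11744 tested genes with a promoter the share was 2.49%, and among those called at least 2-fold higher it was 4.26%.

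All 32 tested interferon-response genes rose, with a median of 3.27 and a range from 0.88 for USP18 to 6.31 for OAS2. IRF1, an interferon regulatory factor, had 11.75, 12.91, 11.90 and 12.17 in delta 22 against 8.03, 8.15, 8.19 and 8.60 in control RNAi. The groups did not overlap, and the rise was 3.94 ± 0.31 (SE, adjusted p = 1.36e-09, limma). GBP1, a guanylate-binding protein, rose by 3.20, its relative GBP2 by 2.77 and the exonuclease gene ISG20 by 3.43. IFIT1, which binds viral RNA, had 12.18, 13.35, 13.70 and 12.51 in delta 22 and 7.85, 8.03, 8.47 and 7.59 in control RNAi. The batch 1 library was the lowest delta 22 library for IFIT1 and for the list as a whole, whose mean level was 10.73, 12.10, 11.97 and 11.56 in delta 22 libraries and between 7.88 and 8.33 in control RNAi. After quantile scaling 31 of the 32 were called higher.

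Genes for antigen presentation on MHC class I rose in 16 of 18 cases and none fell. HLA-B, a heavy chain, had 14.45, 16.03, 15.04 and 15.07 in delta 22 and 9.12, 10.42, 10.23 and 10.09 in control RNAi. It was 36.3-fold higher, with no overlap. HLA-C rose by 3.11, HLA-E by 2.21, and PSMB10, a subunit of the immunoproteasome, by 2.38. The chaperones CANX and PDIA3 did not pass. Reads of the HLA heavy chains may be shared among near-identical genes, so single values are uncertain.

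NF-kB is a family of transcription factors that turns on cytokines and its own inhibitors, and a common form of its binding element is GGGA, any base, then TTTCC. Capitals mark that motif, on either strand, before CXCL1 and TNFAIP3, both chosen after their values were seen. TNFSF15, CXCL8 and RELA, named by the rule for named genes, had no match in the same stretch and are not shown. REL, named by the same rule, held 1 match and is not shown either, and it fell by 0.47.
CXCL1: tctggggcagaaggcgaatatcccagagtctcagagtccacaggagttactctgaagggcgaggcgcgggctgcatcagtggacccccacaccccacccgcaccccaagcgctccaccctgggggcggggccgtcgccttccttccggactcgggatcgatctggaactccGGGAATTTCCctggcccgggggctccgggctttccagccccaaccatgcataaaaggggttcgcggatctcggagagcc
TNFAIP3: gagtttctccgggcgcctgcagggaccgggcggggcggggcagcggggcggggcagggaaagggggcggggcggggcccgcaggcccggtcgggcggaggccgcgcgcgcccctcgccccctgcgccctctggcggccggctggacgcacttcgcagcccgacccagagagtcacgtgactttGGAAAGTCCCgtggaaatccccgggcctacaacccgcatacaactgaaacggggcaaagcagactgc
The windows were chr4:73869143-73869392 on the plus strand for CXCL1 and chr6:137867009-137867258 on the plus strand for TNFAIP3. The motif was found before 9 of the 22 matched genes of the NF-kB list and before 149 of all 27195 promoters, or 0.548%. Its share was 0.579% of the 11744 tested genes with a promoter and 1.15% of those called at least 2-fold higher. A match is a description of the letters and not evidence of binding.

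Of 26 NF-kB and inflammation genes tested, 24 rose and 1 fell, with a median of 3.77. LIF, a cytokine of the interleukin 6 family, had 11.16, 13.23, 12.83 and 12.06 in delta 22 against 5.66, 5.30, 5.73 and 5.68 in control RNAi. The groups did not overlap, batch 1 was again the lowest delta 22 library, and the rise was 6.73 ± 0.53 (SE, adjusted p = 1.3e-09, limma). CXCL8, which encodes interleukin 8, was 59.4-fold higher. TNFSF15, a ligand of the tumour necrosis factor family, rose by 7.16. CXCL1, a chemokine, rose by 5.72 and TNFAIP3, an inhibitor of NF-kB signalling, by 4.24. RELA, a subunit of NF-kB, rose by 0.93, its relative REL fell by 0.47 with overlapping groups, and the inhibitor NFKBIE differed by 0.63 and did not pass. The mean level of the list was 9.94, 12.12, 11.64 and 10.83 in delta 22 libraries, against 7.46 to 7.81 in control RNAi.

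**Figure D4:**
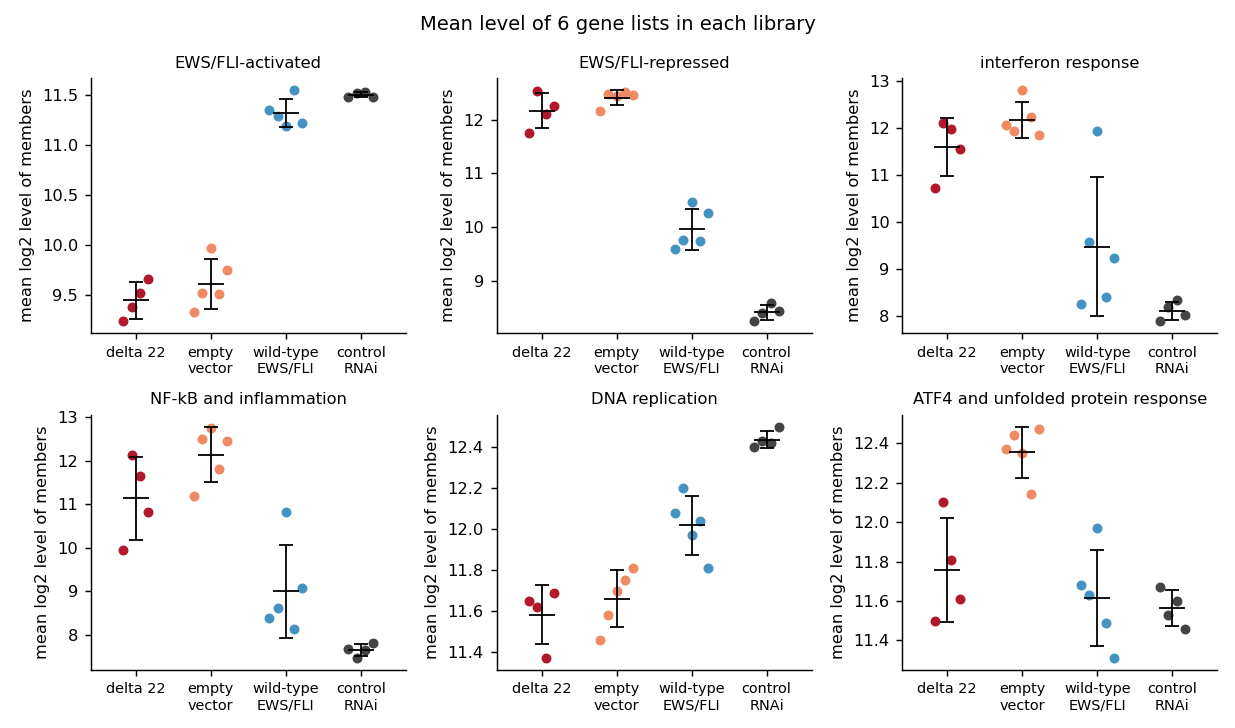
Mean log2 level of the tested members of 6 gene lists in each library, with the mean and SD of each group. Delta 22 libraries lie apart from control RNAi for the EWS/FLI, interferon, NF-kB and DNA replication lists. For the ATF4 and unfolded protein response list they lie below the empty vector libraries, at 11.50 to 12.10 against 12.14 to 12.47, and the wild-type library of batch 3 stands high for interferon and NF-kB genes.

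Genes for DNA replication were lower in delta 22. Of 46 tested, 41 fell and 1 rose, with a median of −0.82. RFC4, a subunit of the clamp loader, had 10.98, 10.97, 10.87 and 11.18 in delta 22 and 12.37, 12.27, 12.19 and 12.39 in control RNAi. The groups did not overlap and the difference was −1.31 ± 0.09 (SE, adjusted p = 9.78e-11, limma). The cell cycle factor E2F2 fell by 2.67, the origin protein ORC2 by 1.44 and the polymerase POLE by 1.10. Thymidine kinase TK1 was the member that rose, by 0.38, and it was no longer called after quantile scaling. All 16 replication-dependent histone genes fell, with a median of −1.19. HIST1H1A had 10.75, 10.46, 9.65 and 10.46 in delta 22 against 12.16, 13.01, 12.90 and 12.74 in control RNAi, a fall of 2.37 with no overlap. Histone transcripts lack a poly(A) tail and belong to families of near-identical genes, so single histone values are uncertain.

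Mitotic genes moved less. Of 33 tested, 13 fell and 2 rose, against 33.7% of all genes lower, with a median of −0.23. MAD2L1, a checkpoint protein, fell by 0.78, cyclin A2 (CCNA2) by 0.89 and BUB1B by 0.67, whereas the phosphatase CDC25B rose by 0.73 and BUB3 by 0.16. MKI67 (−0.21), TOP2A (−0.17) and FOXM1 (−0.16) did not pass. The count of falls was 21 after quantile scaling, 20 with library weights and 20 without the delta 22 library of batch 1. Among cyclins, cyclin-dependent kinases and their inhibitors, 4 of 18 rose and 5 fell, beside 35.1% of all genes tested higher and 33.7% lower. CDKN1A had 12.81, 13.58, 13.73 and 13.12 in delta 22 and 10.69, 10.36, 10.48 and 10.44 in control RNAi, without overlap, while CDKN1B (−0.28) and CDK4 (0.10) did not pass. Of 20 p53 targets, 10 rose, including TP53I3 (3.17), TP53INP1 (2.21) and PLK3 (1.73), and 4 fell, including MDM2 (−0.91), FAS (−0.80) and FDXR (−1.62).

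Genes of protein synthesis and metabolism fell by small amounts. Of 38 cytosolic ribosomal protein genes, 37 fell and none rose, with a median of −0.57. RPS19 had 13.83, 13.84, 13.89 and 13.98 in delta 22 and 14.91, 14.76, 14.75 and 14.80 in control RNAi, a difference of −0.92 ± 0.07 (SE) with no overlap. RPSA fell by 1.03, RPS16 by 0.89 and RPL13 by 0.83, and RPL30 did not pass. Many ribosomal protein genes have processed pseudogenes that can share their reads. Of 29 sterol and fatty acid synthesis genes, 22 fell and none rose, among them HSD17B7 (−1.90), FASN (−1.18) and EBP (−1.07). The sterol sensor partner INSIG1 (0.49) did not pass. Of 31 nuclear genes of oxidative phosphorylation, 24 fell and 1, SDHA, rose by 0.30. SDHB fell by 0.61, UQCRC2 by 0.91, CYC1 by 0.65 and UQCRC1 by 0.54. Glycolysis and hypoxia genes were divided, 11 of 25 higher and 9 lower, beside 35.1% of all genes tested higher and 33.7% lower. The hypoxia-responsive ADM and NDRG1 rose by 5.25 and 4.98, and the glycolytic enzymes PFKM and HK2 fell by 1.42 and 1.38. The ATF4 and unfolded protein response list was also divided against control, 11 of 29 higher and 10 lower, near the shares of all genes tested.

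Developmental and chromatin regulators differed by gene. Of 24 HOX genes tested, 11 rose and 10 fell, beside 35.1% of all genes tested higher and 33.7% lower. HOXB8 had 9.06, 9.0, 8.97 and 9.22 in delta 22 and 6.79, 6.47, 6.23 and 6.53 in control RNAi, a rise of 2.56 ± 0.18 (SE) without overlap. HOXB2 rose by 1.38 and HOXB3 by 0.95, while HOXD13 had 9.38, 9.56, 9.73 and 9.99 in delta 22 against 10.99, 11.27, 11.30 and 11.07 in control RNAi and fell by 1.49. HOXD3, HOXD4, HOXD8, HOXD9, HOXD10 and HOXD11 were also lower, by between 0.30 and 1.30, whereas HOXD1, named after its values were seen, rose by 1.45. Among ETS factors, 10 of 21 rose and 3 fell. ETS1 had 12.83, 13.69, 13.29 and 12.90 in delta 22 and 8.36, 8.30, 8.92 and 8.40 in control RNAi. ETS1 thus rose by 4.68 ± 0.27 (SE), while the neuronal factor FEV fell by 4.59, ETS2 by 0.97 and GABPA by 0.27. Of 30 polycomb and NuRD genes, 19 fell and 2 rose: CHD3 (−1.40), CBX2 (−1.53), CBX8 (−1.28) and the corepressor RCOR1 (−1.21) fell. Of 24 neural genes tested, 13 fell and 9 rose. The granin CHGA fell by 4.60, the peptide gene GRP by 3.77 and the LIM homeobox gene ISL1 by 2.13, while stathmin 2 (STMN2) rose by 3.75 and the growth cone gene GAP43 by 2.67.

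Delta 22 differed little from the empty vector. Of 18040 genes, 811 were called between the delta 22 and empty vector cells, or 4.5%, with 404 higher (2.24%) and 407 lower (2.26%). At least 2-fold differences were called for 198 genes (1.1%), 68 of them higher (0.377%) and 130 lower (0.721%). In 8.36% of genes the libraries of these groups were fully apart. The count rests on single libraries and on the model. It was 1292 with the batch as a replicate block, 262 when only these 2 groups entered the fit, and 383, 502 and 484 without delta 22 library 1, 2 or 4, and 495 without empty vector library 5. Of 46 EWS/FLI-activated genes none was called higher than in the empty vector and 3 were called lower: FEZF1 (−1.11), NR0B1 (−1.07) and MYC (−0.64). Of 29 repressed genes 1, DKK1, was called higher (1.03) and 1, NKD1, lower (−1.06). The median differences of these lists were −0.11 and −0.04, beside 0.006 over all genes. None of the 32 interferon genes was called, with a median of −0.58. Of 26 NF-kB genes 1, NFKBIE, was called lower, with a median of −1.06. The delta 22 libraries of batches 1 and 4 lay below every empty vector library in the mean of both lists, at 10.73 and 11.56 against 11.85 to 12.81 for interferon genes and at 9.94 and 10.83 against 11.18 to 12.76 for NF-kB genes, and the other delta 22 libraries lay within the empty vector range.

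Some genes were higher in delta 22 than in both the empty vector and the control. IGFBP5, at 16.97 to 17.56 in delta 22, had 15.50, 15.06, 14.80, 15.31 and 14.53 in empty vector libraries. It was 4.86-fold higher in delta 22 (difference 2.28 ± 0.23, SE, adjusted p = 3.51e-05, limma), without overlap. HLA-DRA, an MHC class II chain, had 8.06, 9.78, 7.49 and 9.03 in delta 22, 6.02, 6.98, 5.73, 6.65 and 6.58 in the empty vector and 3.04, 3.04, 2.84 and 2.88 in control RNAi. All 3 groups were apart, and the difference from the empty vector was 2.20 ± 0.39 (SE). TM4SF18 was higher than in the empty vector by 1.95, the prohormone convertase PCSK1 by 1.83, thrombomodulin (THBD) by 1.81 and the endothelial receptor CD93 by 1.68. The collagen gene COL14A1 was higher by 2.29, at low levels of 4.40 to 6.52 in delta 22. HOXB8 was also higher than in the empty vector, by 1.42.

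Other genes were lower in delta 22 than in the empty vector. SPX, a secreted peptide gene, had 4.61, 7.38, 6.91 and 5.46 in delta 22, 8.64, 9.78, 8.80, 9.43 and 10.23 in the empty vector and 5.32, 5.58, 5.80 and 5.93 in control RNAi. Delta 22 lay under every empty vector library and overlapped control, with a difference from the empty vector of −3.29 ± 0.53 (SE, adjusted p = 0.00161, limma). The pseudogene ROCK1P1 was lower by 2.52, the activin subunit INHBE by 2.40, the carbonic anhydrase CA12 by 1.98 and the hexokinase relative HKDC1 by 1.89. Reads of ROCK1P1 may be shared with its parent gene. CD40, a receptor of the tumour necrosis factor family, had 5.23, 6.91, 6.66 and 6.72 in delta 22, 7.14, 8.30, 8.68, 8.67 and 8.75 in the empty vector and 8.47, 9.07, 8.87 and 8.67 in control RNAi. It was below both groups, as were the calcium channel RYR2, the Krüppel-like factor KLF15, the exchange factor RASGRF1 and the p53 relative TP63. KLF15 had 5.55, 5.86, 6.16 and 5.49 in delta 22, 7.30, 7.12, 7.30, 7.05 and 8.15 in the empty vector and 10.12, 9.92, 9.64 and 9.60 in control RNAi. The 3 groups were fully apart, with differences of −1.62 from the empty vector and −4.05 from control.

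**Figure D5:**
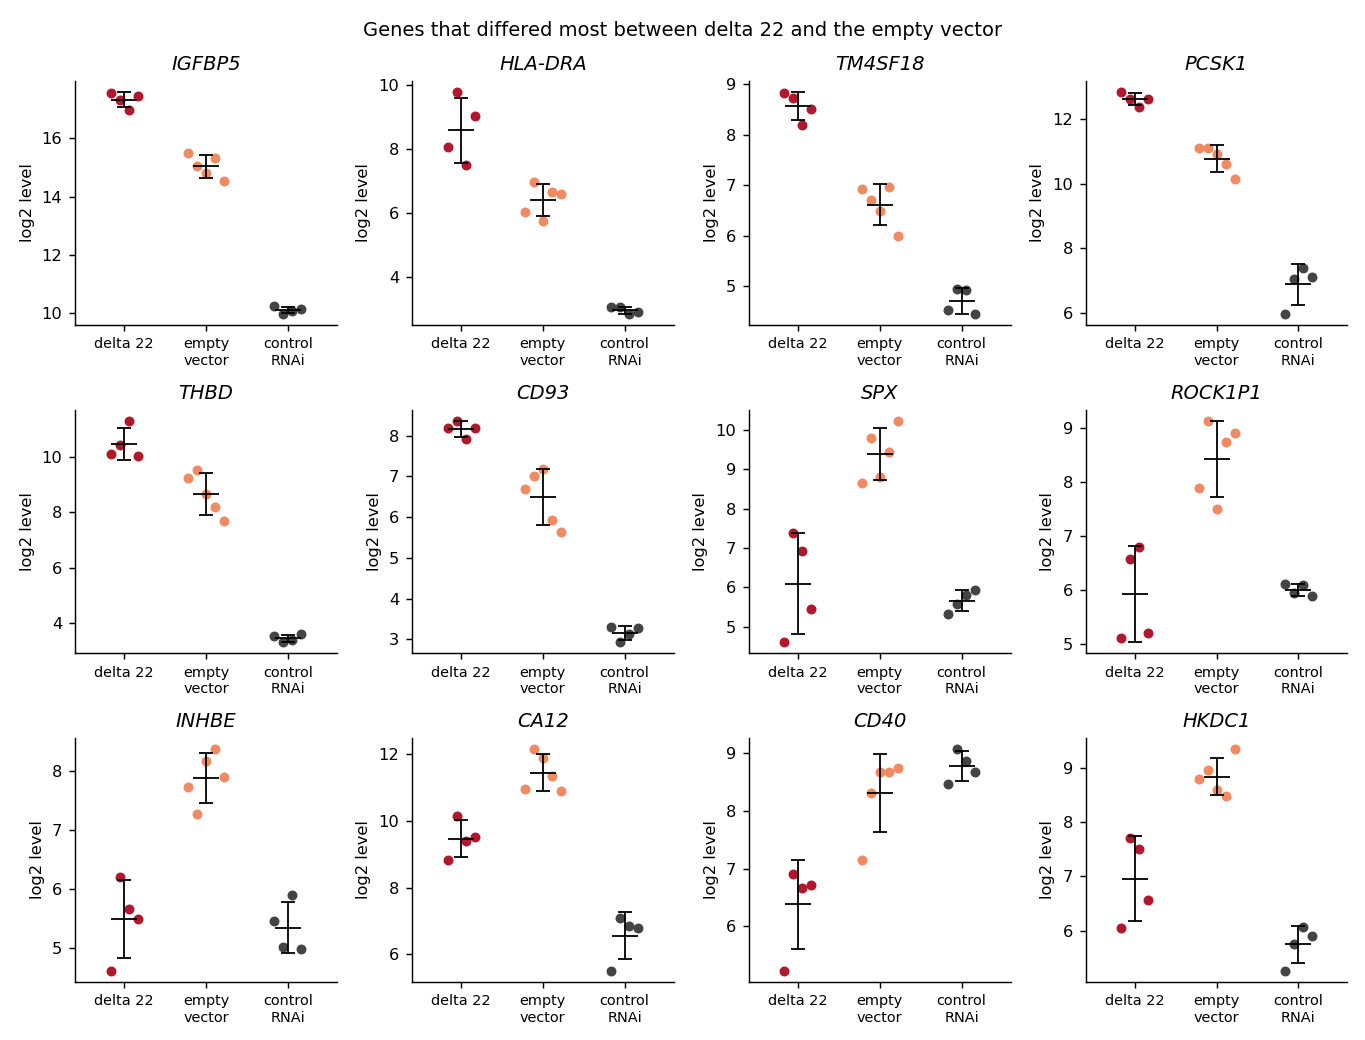
Log2 levels in each library of the 6 genes highest and the 6 lowest in delta 22 against the empty vector by the rule for named genes, with control RNAi at the right; bars are the mean and SD. IGFBP5 and PCSK1 are highest in delta 22, and SPX, ROCK1P1 and INHBE lie near control in delta 22 but high in the empty vector.

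ATF4 and its partners drive amino acid supply and stress genes, and this list had 11 of 29 members lower in delta 22 than in the empty vector, against 2.26% of all genes, and none higher. ASNS, asparagine synthetase, had 10.63, 11.25, 11.17 and 11.03 in delta 22, 12.66, 12.22, 12.36, 12.30 and 12.84 in the empty vector and 12.43, 12.05, 12.12 and 12.01 in control RNAi. Delta 22 was below both other groups, by 1.45 ± 0.18 (SE) from the empty vector and 1.13 from control. The pseudokinase gene TRIB3 was lower by 1.70 against the empty vector and did not pass against control (−0.45). CHAC1, which degrades glutathione, and the stress protein SESN2, both chosen after their values were seen, were lower by 1.24 and 1.45. ATF4 itself differed by −0.06 from the empty vector. The number of members called lower was between 8 and 13 with any 1 of these libraries left out, and 20 with the replicate block, alternatives added after the data were seen.

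Against the wild-type rescue, delta 22 differed broadly. There were 11045 calls, or 61.2% of genes tested, with 5727 higher in delta 22 (31.7%) and 5318 lower (29.5%). Of the 46 EWS/FLI-activated genes 38 were lower and 5 higher, and of the 29 repressed genes 25 were higher and 1 lower, with medians of −1.75 and 1.92 beside −0.004 over all genes. IGSF21, an immunoglobulin superfamily gene, had 3.37, 3.85, 3.53 and 3.38 in delta 22, 9.86, 10.86, 9.92, 10.48 and 9.26 in the wild-type rescue and 5.84, 5.00, 5.24 and 5.24 in control RNAi. It was highest in the wild-type rescue and lower in delta 22 than in either group, with a difference of −6.54 ± 0.26 (SE) from wild type and −1.80 from control. The peptide hormone gene APELA was lower than in the wild-type rescue by 6.20 and the sodium channel subunit SCNN1G by 5.58. The largest rises over the wild-type rescue were of THBS1 (6.35), SLC14A1 (5.79), ANPEP (5.55), TM4SF1 (5.54), the globin CYGB (5.50) and PDGFRA (5.35). Interferon genes were called higher than in the wild-type rescue in 31 of 32 cases, although the wild-type library of batch 3 had a list mean of 11.93, within the 10.73 to 12.10 of the delta 22 libraries, and the other wild-type libraries had 8.25 to 9.57. For ribosomal protein genes 12 of 38 were called lower than in the wild-type rescue, with a median of −0.12. Sterol and fatty acid synthesis genes had 7 of 29 lower and 3 higher, with a median of −0.15. Oxidative phosphorylation genes had 12 of 31 lower and 4 higher, with a median of −0.13. The falls of these 3 lists against control RNAi were thus larger than those against the wild-type rescue.

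Markers of cell types that the line should not contain are given for comparison, and their part in these results was not tested. Against control RNAi, 35.1% of all genes tested were higher and 33.7% lower. The shares of epithelial and immune markers that rose are not far from the first of these. Of 9 endothelial markers 8 were tested, and 6 rose, among them KDR and TIE1 (4.58), while EGFL7 fell by 2.05. The mean level of the 8 was 6.78 to 7.05 in delta 22, 5.98 to 6.64 in the empty vector and 5.18 to 5.32 in control RNAi. Against the empty vector 2 of the 8 were called higher in delta 22, beside 2.24% of all genes, and none lower. Epithelial markers had 7 of 13 tested, with 3 higher, led by CLDN4 (3.65), and 1 lower, ESRP1 (−0.83), and a mean of 6.50 to 7.67 in delta 22 against 6.13 to 6.81 in control RNAi. Immune markers had 7 of 14 tested, with means of 4.55 to 4.81 in delta 22 and 4.5 to 4.88 in control RNAi. Of these, 3 rose, CD14 by 2.18, CSF1R by 1.63 and CD68 by 1.17, and 1 fell, the B cell receptor subunit CD79A, by 4.56. PTPRC, the general leukocyte marker, did not pass (0.16). Muscle markers had 6 of 12 tested, with means of 6.13 to 6.73 in delta 22 and 7.15 to 7.40 in control RNAi. Of these, 4 fell, among them PAX7 (−3.88) and TNNT1 (−3.94), and 2 rose, DES by 2.62 and ACTC1 by 1.08. PAX7 also stands on the EWS/FLI-activated and GGAA-repeat lists. NKX2-2, LIPI and NR0B1, which mark Ewing sarcoma cells, had levels of 9.5 to 12.28 in the control RNAi libraries.

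By gene class, protein-coding genes made up 14234 of the genes tested, with 38.0% called higher in delta 22 and 34.9% lower. Long intergenic RNAs were higher in 34.8% and lower in 29.9% of 767. Processed pseudogenes had 13.6% higher and 27.4% lower of 634, at a median level of 4.26 against 9.96 for protein-coding genes. Among genes often used as internal standards, GAPDH differed by −0.04 and POLR2A by 0.11 without passing, while YWHAZ rose by 1.39. Of 17 such genes 6 were called higher and 8 lower, beside 35.1% of all genes tested higher and 33.7% lower.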

How the data were processed

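The authors deposited one table of normalised expression values on a log2 scale for 21 libraries. Per the submitters' processing notes, bcl2fastq, STAR 2.5.2b, HTSeq and DESeq2 were used with build hg19; their settings and the annotation are not given in the sources used here. Per the labels, libraries were made with ScriptSeq from 2.5 ug of total RNA. Read totals cannot be read from these values, so no counting error is given. The transform behind the log2 values is not given in the sources used here, and values of low genes depend on it. Gene names came from GENCODE 29 (52338 IDs matched, 5482 did not).

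Genes at log2(10) or more in at least 3 libraries were tested with limma 3.58.1 in R 4.3.3, with a mean-variance trend, in 1 fit over all 21 libraries, and p-values were adjusted over all genes by the Benjamini-Hochberg method. This script was tested on simulated data. FLI1 and EWSR1 also had exact permutation tests. Groups and batches came from the labels.

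The genes named were FLI1, EWSR1, 25 fixed genes, the 12 largest rises and falls with a mean level of at least log2(100), up to 4 called members per list with those against the majority or not passing, and the 6 largest per direction in the other comparisons. Genes at the ends of a list's range, and those so marked, were chosen after their values were seen. The members and lists were chosen with earlier results of these data known.

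The labels give a batch number that groups share. Deviations of same-batch libraries had a mean correlation of 0.05 between delta 22 and control RNAi (−0.05 to 0.15), 0.42 between delta 22 and the empty vector (0.0 to 0.63) and 0.15 between delta 22 and the wild-type rescue. Alternatives were quantile and trimmed mean scaling, the batch as a replicate block, only the compared groups, library weights, only batches with both groups, and each library left out. Promoter sequences are from RefSeq, GRCh38.p14, and are not used with coordinates of hg19. Some genes that the rule names are not reported here.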

Additional observations from a re-analysis of the deposited data

Results flagged for a closer look

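Among the genes named above, 556 sets of 4 libraries (each gene in delta 22 and in control RNAi) were examined for a library far from the other 3, and 26 held one. Chance gives about 1 in 20 such sets. In each, most of the range of the set was the gap between that library and its nearest neighbour. The delta 22 library of batch 1 was the high one for GLI2 (9.96, others 9.14 to 9.23). Of the delta 22 libraries, that of batch 1 was the low one for CD40 (5.23, others 6.66 to 6.91), LOX (13.08, others 13.55 to 13.64) and PMP22 (13.02, others 13.45 to 13.48). The delta 22 library of batch 2 was the high one for TPH1 (3.38, others 3.05 to 3.10). Of the delta 22 libraries, that of batch 2 was the low one for FLT4 (3.58, others 4.23 to 4.30). Of the delta 22 libraries, that of batch 3 was the low one for COL6A1 (14.40, others 15.05 to 15.17), COL6A2 (14.86, others 15.48 to 15.53) and WNT5B (9.74, others 10.04 to 10.08). The delta 22 library of batch 4 was the high one for BMP1 (12.46, others 12.04 to 12.08), RET (9.02, others 8.12 to 8.25) and RPSA (14.77, others 14.67 to 14.69). Of the delta 22 libraries, that of batch 4 was the low one for BMP4 (5.95, others 7.59 to 7.84). The control RNAi library of batch 1 was the high one for ID2 (13.54, others 13.15 to 13.20) and LIPI (12.28, others 11.92 to 11.95). Of the control RNAi libraries, that of batch 1 was the low one for CD79A (8.09, others 8.91 to 8.94), COL11A2 (5.76, others 5.90 to 5.92), COL8A2 (4.16, others 4.72 to 4.83), GRP (10.86, others 11.65 to 11.71) and TM4SF1 (5.91, others 6.16 to 6.17). The control RNAi library of batch 2 was the high one for NKD2 (7.96, others 7.73 to 7.76). The control RNAi library of batch 3 was the high one for ETS1 (8.92, others 8.30 to 8.40) and IGFBP1 (3.48, others 3.26 to 3.29). Of the control RNAi libraries, that of batch 3 was the low one for FST (3.45, others 3.83 to 3.86). The control RNAi library of batch 5 was the high one for NTN4 (9.78, others 9.48 to 9.52). Of the control RNAi libraries, that of batch 5 was the low one for RCOR1 (12.99, others 13.12 to 13.14).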

How the results depend on the processing

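Against control RNAi, the number of genes called was 11883 to 12109 with 1 library left out. Of 474 named genes, 309 were called, and 288 of these kept the call in all 14 alternatives; quantile scaling lost 8, the replicate block 1 and the restriction to shared batches 11. Quantile scaling turned the direction of CCND1 to −0.29 (adjusted p = 0.00903, limma) and of ACTB to −0.02 (adjusted p = 0.863), and gave the median gene −0.183; the cause was not tested. Of 1120 counts of list members, 1089 were within 1.5 times the reported count.

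The count between delta 22 and the empty vector was the least stable. It was 1292 with the replicate block, 262 with only those groups fitted, 467 in batches with both groups, and 383 to 857 with 1 library left out, against 811; the cause was not tested. Among the counts of all genes called, the replicate block changed no other by more than 1.5 times. Against the wild-type rescue, leaving out 1 library gave 10195 to 10888 calls. Depth is unknown, so small differences of low genes cannot be bounded by counting error.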
